A study of Rattus norvegicus with 9 samples.

Results

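The genes described here are the chemokines, interleukins and tumour necrosis factor (TNF) superfamily members of the rat vestibular sensory epithelium, together with their receptors. They were taken by symbol, as the protein-coding genes whose symbols begin with Ccl, Cxcl, Ccr, Cxcr, Ackr, Il, Tnfsf or Tnfrsf followed by a number and whose counts reached a total of at least 10 over the 9 libraries. This gave 112 of the 32883 genes in the table: 24 chemokine ligands, 14 chemokine receptors, 12 interleukins, 35 interleukin receptors, 4 other interleukin-related genes, 8 TNF ligands and 15 TNF receptors. Another 47 protein-coding genes with such symbols fell under the minimum and were left out. Of these, 31 had no count in any library, among them Il4, Il6, Il10, Il13, Il17a, Il17f and Tnfsf11.

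Male Long-Evans rats drank water with 20 mM 3,3'-iminodipropionitrile (IDPN), a nitrile that damages vestibular hair cells, for 3 weeks (IDPN3w) or 7 weeks (IDPN7w). Control rats drank plain water, and the single control group, which served both comparisons, held animals euthanized at each of the 2 times. The 6 cristae and 2 utricles of each rat were pooled into 1 library, with 3 rats per group, so the spread given here is between animals. The exact intervals given for ratios of pooled counts are the exception, since they cover counting error only. Libraries were made by SMARTseq2, a method for very small inputs in which polyadenylated RNA is reverse transcribed and the cDNA is amplified.

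Chemokines are small secreted proteins that attract leukocytes through G protein-coupled receptors, while atypical receptors of the Ackr group bind and remove them. Interleukins and TNF superfamily ligands act through receptors that signal mainly by way of JAK-STAT, MyD88 or TRAF adaptors to NF-kB, and several of the receptors are decoys that bind a ligand without signalling. In the inner ear, these molecules are produced by resident macrophages and also by epithelial and supporting cells.

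Levels are given as CPM, which are read counts scaled to the TMM-adjusted size of each library, for rats 1, 2 and 3 of each group in that order. The 9 libraries held between 31100118 and 46018385 counts, so that a level of 3 counts lay between 0.0611 and 0.101 CPM, a floor that covers counting error only. When all libraries were thinned to the same depth, 3 of them (Control 3, IDPN3w 1 and IDPN3w 2) showed 15387 to 15501 detected genes and the other 6 showed 16829 to 17296. The 3 libraries with fewer detected genes had no count for 42 to 45 of the 112 genes, against 6 to 18 in the other 6. All 3 IDPN7w libraries belonged to the 6 with more detected genes, so comparisons of scarce transcripts with IDPN7w also compare libraries that detected different numbers of genes, and the part of this in the results was not tested except where values without those 3 libraries are given. All 9 libraries carry the same batch label. Their titles also hold a code of unstated meaning, which is the same in all 3 controls and in no exposed rat, the same in IDPN3w 2 and 3, the same in IDPN7w 2 and 3, and shared by IDPN3w 1 and IDPN7w 1. Whatever this code marks cannot be told apart from exposure in the comparisons with control.

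**Figure D1:**
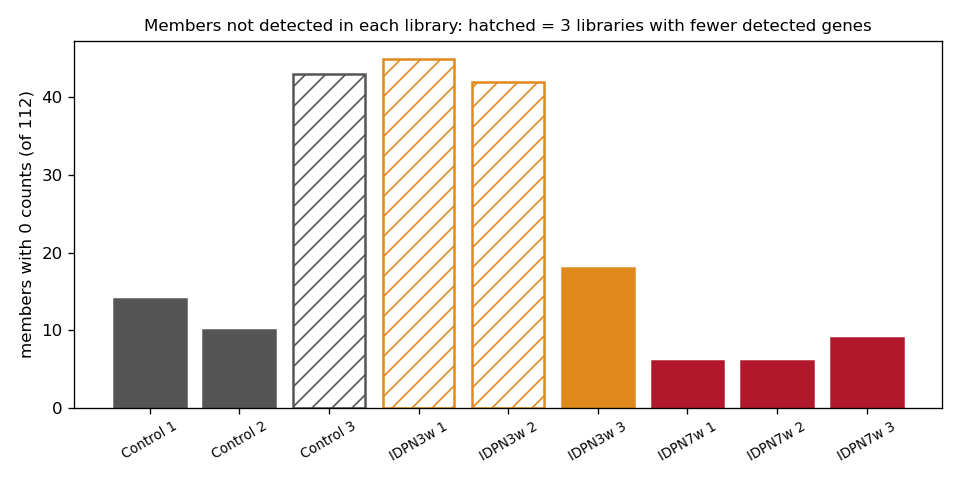
Number of the 112 cytokine and receptor genes with 0 counts in each library, with the 3 libraries that detected fewer genes hatched. These 3 libraries lacked 42 to 45 of the genes and the other 6 lacked 6 to 18.

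The 93 genes that passed the filter on low counts were tested within a fit of all 15517 genes that passed, with edgeR's quasi-likelihood test and Benjamini-Hochberg adjustment over all of them. Genes were called differentially expressed (DEGs) when the fold change exceeded 1.5 with an adjusted p below 0.05. The 19 genes that were not tested never reached 1 CPM, the highest value being 0.929 CPM for Ccl2 in Control 3. They were Ccl2, Ccl3, Ccl9, Ccl22, Ackr2, Ccr4, Ccr6, Cxcr3, Il1rn, Il7r, Il11, Il20rb, Il22ra2, Il23r, Tnfsf4, Tnfrsf8, Tnfrsf14, Tnfrsf17 and Tnfrsf18.

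After 3 weeks, 4 genes were upregulated (Cxcl17, Il17rb, Il1r2 and Tnfrsf11b) and 1 was downregulated (Cxcl12). These were 5.38% of the 93 genes, while 1.65% of all tested genes were DEGs. After 7 weeks, 8 were upregulated (Cxcl16, Cxcl17, Il17rb, Il17re, Tnfrsf11b, Tnfrsf12a, Tnfrsf19 and Tnfrsf1a) and 5 were downregulated (Cxcl12, Cxcl14, Il16, Il1rapl1 and Tnfrsf21), which was 14.0% of the 93 against 5.13% of all tested genes. Il1rapl1 counts among these although it passed the filter on low counts through the controls alone. By direction, 0.438% of all tested genes were upregulated and 1.21% downregulated at 3 weeks, and 2.00% and 3.13% at 7 weeks. Only Il17rb was a DEG between the IDPN7w and IDPN3w groups in the edgeR fit, as higher in IDPN7w (1.08% of the 93), where 0.483% of all tested genes passed and 0.348% passed as higher. No gene passed as lower in IDPN7w than in IDPN3w with edgeR, although 6 were lower at an unadjusted p under 0.05 and DESeq2 called 1, Il17b.

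The values of the 3 rats of a group did not overlap those of the controls for 27 of the 93 genes at 3 weeks (29.0%, against 19.6% of all tested genes) and for 48 at 7 weeks (51.6%, against 34.3%). At 3 weeks, 15 of the 27 were above the controls (8.78% of all tested genes were) and 12 below (10.9%). At 7 weeks, 38 of the 48 were above (17.2% of all tested genes) and 10 below (17.1%). Between IDPN7w and IDPN3w, 39 genes did not overlap (41.9%, against 21.0%), 33 of them higher in IDPN7w (12.1% of all tested genes) and 6 lower (8.92%). Genes that passed the filter through a single group in which they were high count here as well, so these shares describe the tested genes only.

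Ligands and receptors were then compared. Among 38 tested ligands, 2 were DEGs at 3 weeks (5.26%) and 5 at 7 weeks (13.2%). Among 53 tested receptors there were 3 (5.66%) and 8 (15.1%), the 8 including Il1rapl1. The shares of all tested genes were 1.65% and 5.13%. The median log2 fold change of ligands was 0.30 at 3 weeks and 0.66 at 7 weeks, and that of receptors was -0.14 and 0.59, or -0.11 and 0.59 with genes absent from a whole group set at the bound that 3 counts allow. The 3-week values did not keep their side of zero, since the ligand median was -0.06 without IDPN3w 2 and the receptor median was 0.22 when at least 10 counts were required in every library. Fewer cells of a given type and less RNA per cell cannot be told apart in such pooled tissue.

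**Figure D2:**
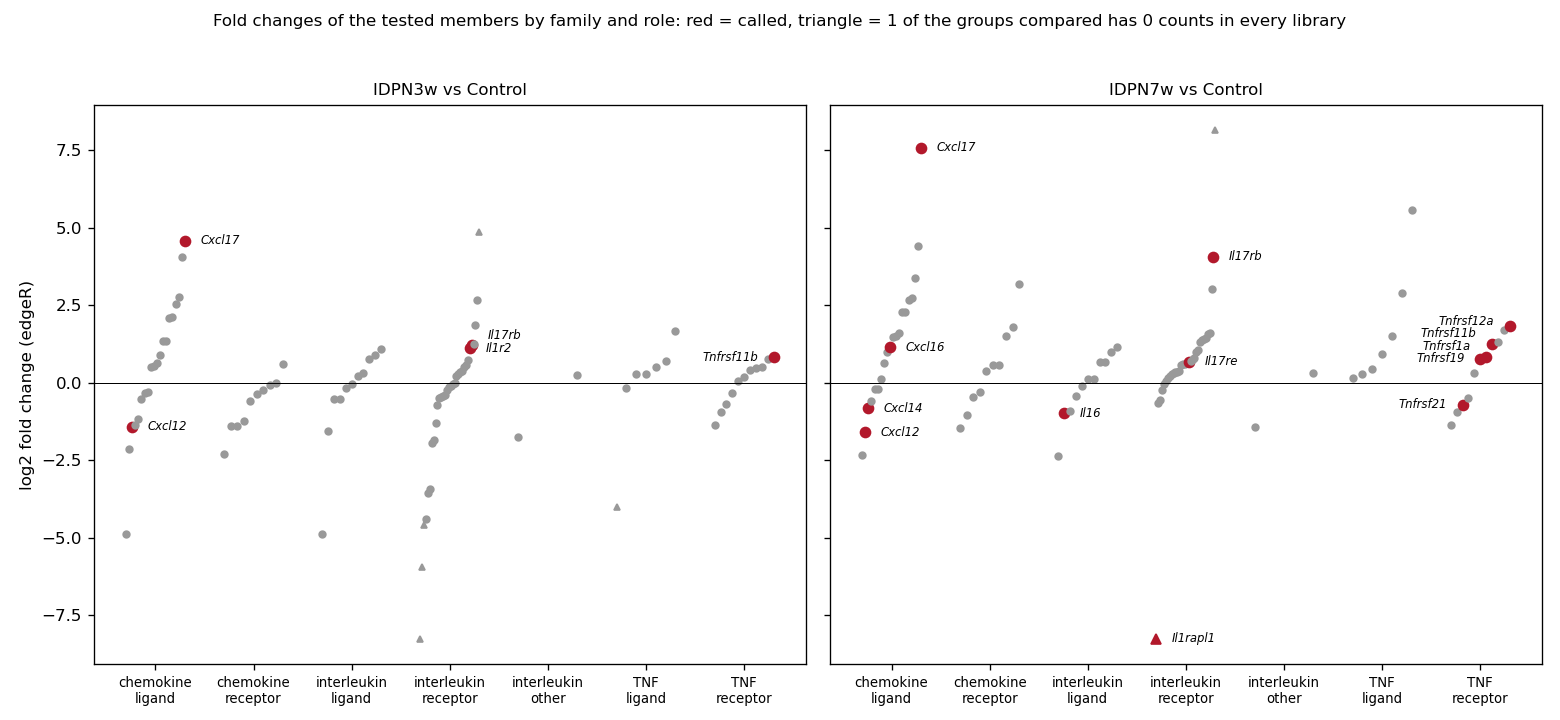
Log2 fold changes (edgeR, vertical axis) of the 93 tested genes by family and role, for IDPN3w against control on the left and IDPN7w against control on the right. DEGs are red and named, and triangles mark genes with 0 counts in every library of 1 of the groups compared, whose fitted value is no measured size. DEGs number 5 on the left and 13 on the right.

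Among the chemokine ligands, Cxcl12 and Cxcl17 were DEGs at both times, in opposite directions. Cxcl12 encodes the ligand of CXCR4 and of the scavenging receptor ACKR3, and is known for retaining and guiding migrating cells. It measured 68.2, 85.0 and 109.7 CPM in controls, 35.6, 30.9 and 31.6 CPM after 3 weeks, and 27.7, 29.1 and 29.8 CPM after 7 weeks. All 6 exposed rats were below the 3 controls, and the 3 groups were apart from each other. On the log2 scale the edgeR estimate was -1.42 ± 0.17 (SE, n = 3 rats per group, adjusted p = 0.00334) for IDPN3w and -1.60 ± 0.17 (adjusted p = 0.000611) for IDPN7w. Among the 3 libraries that detected fewer genes the 3-week difference was -1.67 on the log2 scale, and within the other 6 it was -1.22.

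The receptors of CXCL12 did not pass the test. Ackr3 measured 91.0, 93.8 and 102 CPM in controls, 91.3, 102 and 79.6 CPM at 3 weeks, and 58.6, 80.2 and 69.0 CPM at 7 weeks. The 7-week rats were all below the controls, and differed from them by -0.46 ± 0.14 on the log2 scale (adjusted p from edgeR 0.0838). Cxcr4 measured 1.27, 2.79 and 2.79 CPM in controls, 1.44, 0.404 and 0.707 CPM at 3 weeks and 0.978, 1.44 and 0.912 CPM at 7 weeks, and the groups overlapped.

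Cxcl17, which encodes a mucosal chemokine that attracts myeloid cells, was almost absent from control epithelia, with 0.0539, 0.0626 and 0 CPM, or 4 counts in all. It measured 1.23, 0.774 and 0.984 CPM in IDPN3w rats and 7.05, 7.40 and 9.39 CPM in IDPN7w rats. No control reached the lowest exposed rat, and every IDPN7w rat was above every IDPN3w rat. The ratio to the pooled control counts was 26.4 (95% exact interval 10.0 to 98.9) at 3 weeks and 205 (79.9 to 754) at 7 weeks, with edgeR adjusted p of 0.0128 and 0.000474. These intervals, like the exact intervals given below, treat the counts of 3 rats as 1 pool and leave out the spread between rats. IDPN7w and IDPN3w differed by a log2 value of 2.99 ± 0.58, which did not pass (adjusted p = 0.0627). The 3-week call was lost without Control 1 (adjusted p = 0.0621) or Control 2 (0.0515) and when IDPN3w and control libraries were fitted alone (0.212), whereas the 7-week call was kept under every alternative that tested the gene. In RefSeq, the gene overlaps the non-coding RNA gene LOC120096895.

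Cxcl14 encodes a chemokine made mainly by epithelia, and Cxcl16 encodes a transmembrane chemokine that binds CXCR6 and oxidized lipoproteins. Cxcl14 measured 71.0, 77.3 and 62.9 CPM in controls, 44.2, 49.5 and 52.1 CPM at 3 weeks, and 40.1, 36.5 and 42.0 CPM at 7 weeks. The 3 groups were apart, and edgeR gave a log2 change of -0.53 ± 0.13 (adjusted p = 0.0683) for IDPN3w and -0.83 ± 0.13 (adjusted p = 0.00403) for IDPN7w. Cxcl16 measured 41.3, 35.3 and 25.7 CPM in controls, 50.6, 45.2 and 51.8 CPM at 3 weeks, and 97.6, 63.0 and 66.2 CPM at 7 weeks. Its groups were apart in the other direction, IDPN7w rat 1 being the highest, and edgeR gave 0.53 ± 0.21 (log2, adjusted p = 0.254) for IDPN3w and 1.15 ± 0.21 (adjusted p = 0.0102) for IDPN7w. Cxcl16 overlaps Zmynd15 in RefSeq, and Zmynd15 moved the same way at 7 weeks (log2 fold change 1.21, edgeR adjusted p = 0.0108), so that reads from the shared stretch cannot be told apart without a stated strand. Cxcr6, its receptor, stayed at or below 1.40 CPM in every library.

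**Figure D3:**
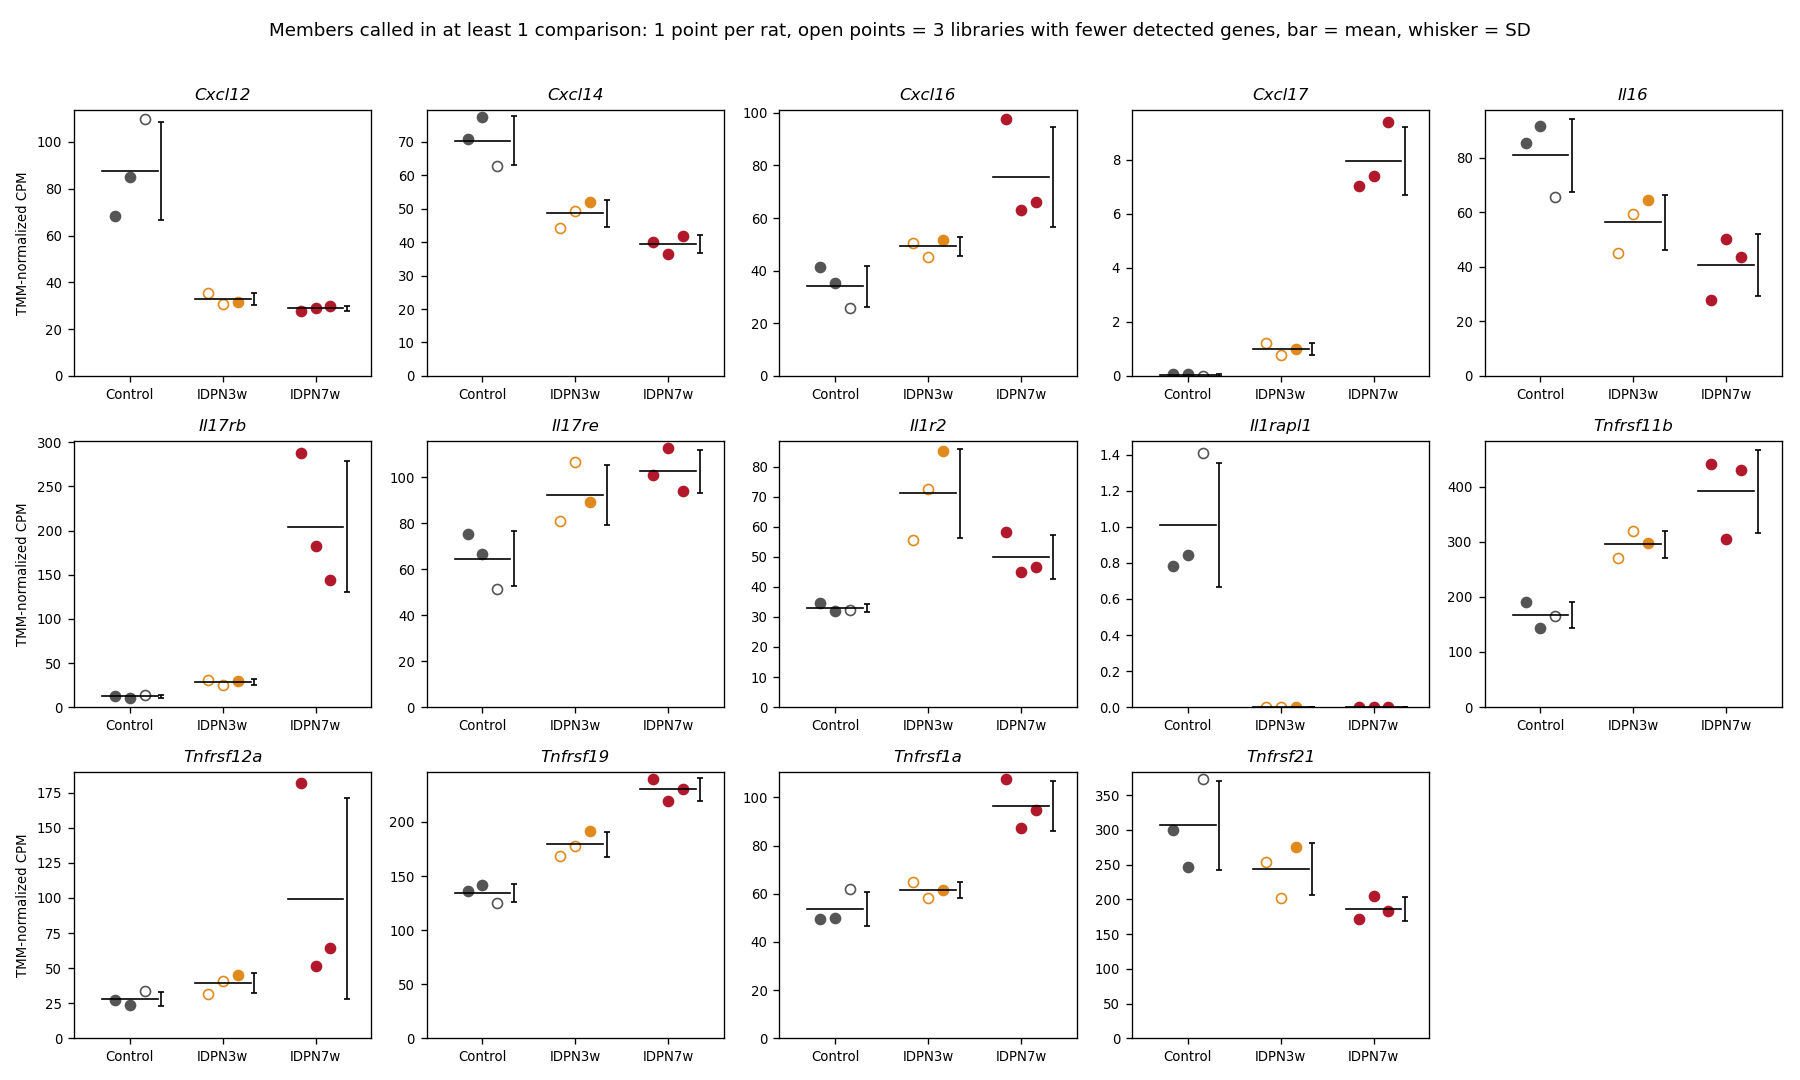
TMM-normalized CPM of the 14 genes that were DEGs in at least 1 comparison, with 1 point per rat, open points for the 3 libraries with fewer detected genes, a bar at the mean of 3 rats and a whisker for the SD. Each vertical axis is linear, starts at 0 and has its own scale, and Il17rb shows the IDPN7w rats at 144 to 288 CPM above all other rats.

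The interferon-induced chemokines, which attract activated T cells through CXCR3, did not pass in the edgeR fit of all libraries. Cxcl11 measured 1.24, 2.32 and 2.22 CPM in controls, 4.63, 7.44 and 2.71 CPM at 3 weeks and 4.83, 6.68 and 4.48 CPM at 7 weeks. All exposed rats were above the controls, with log2 fold changes of 1.35 ± 0.46 (edgeR adjusted p = 0.187) and 1.47 ± 0.46 (adjusted p = 0.104). The 7-week change of Cxcl11 passed with DESeq2 and when only IDPN7w and control libraries were fitted. Cxcl10 measured 1.46, 4.35 and 2.11 CPM in controls, 2.70, 12.9 and 4.37 CPM at 3 weeks, and 4.01, 4.93 and 6.74 CPM at 7 weeks, so that Control 2 lay within the exposed range. Cxcl9 measured 4.85 to 11.1 CPM in controls, 5.05 to 8.09 CPM at 3 weeks and 5.97 to 7.47 CPM at 7 weeks. Cxcl10 and Cxcl11 lie within the span of Art3 in RefSeq, and Cxcr3 was found only in Control 1 and in IDPN7w rats 1 and 2, at no more than 0.351 CPM.

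Among CC chemokines, several scarce transcripts were higher in IDPN7w than in IDPN3w or control rats, without passing in the edgeR fit of all libraries. Ccl6, a chemokine of myeloid cells, measured 4.50, 3.41 and 8.50 CPM in controls, 1.64, 2.42 and 2.34 CPM at 3 weeks, and 10.2, 6.87 and 8.56 CPM at 7 weeks. IDPN3w rats were below and apart from both other groups, and IDPN7w exceeded IDPN3w by a log2 value of 2.00 ± 0.41 (edgeR adjusted p = 0.0744). IDPN7w rats overlapped the controls (log2 0.64 ± 0.39, adjusted p = 0.431). Ccl5, which attracts T cells and monocytes, had 8 counts in the 3 IDPN3w rats together and 253 in the 3 IDPN7w rats, a ratio of 22.8 (95% exact interval 11.4 to 53.4, edgeR adjusted p = 0.167). Against control, IDPN7w differed by a log2 value of 2.28 ± 1.09 (4.87-fold, edgeR adjusted p = 0.291), and this passed when only IDPN7w and control libraries were fitted. Ccl4, a chemokine of macrophages and T cells, had 2 counts in all controls and 64 in all IDPN7w rats, a ratio of 24.4 (6.48 to 206, edgeR adjusted p = 0.112). With DESeq2, Ccl6 and Ccl5 passed between IDPN7w and IDPN3w, and Ccl4 passed between IDPN7w and control. Ccl19, which guides cells that carry CCR7, measured 4.86 to 6.77 CPM in controls, 7.90 to 8.15 CPM at 3 weeks and 4.73 to 7.28 CPM at 7 weeks.

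Of the 14 chemokine receptors, 10 were tested and none passed in any comparison with edgeR or DESeq2. Ackr3 was the only one with an unadjusted p under 0.05, at 7 weeks (1 of 10) and between IDPN7w and IDPN3w (1 of 10), and none had one at 3 weeks. Ccr1, a receptor of several CC chemokines on monocytes and macrophages, measured 1.11, 1.22 and 2.36 CPM in controls, 0, 2.90 and 0.215 CPM at 3 weeks, and 5.03, 4.48 and 3.95 CPM at 7 weeks. IDPN7w rats were all above the others, and the spread among IDPN3w rats was wide (log2 fold change of IDPN7w against control 1.52 ± 1.23, edgeR adjusted p = 0.581). Ackr4, an atypical receptor of homeostatic CC chemokines, measured 1.94 to 2.60 CPM in controls, 0 to 1.63 CPM at 3 weeks and 2.63 to 3.97 CPM at 7 weeks. Cxcr5, the receptor of the B-cell chemokine CXCL13, ranged from 0.094 to 4.98 CPM in controls and overlapped between the groups.

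Macrophage markers were higher at 7 weeks. Of 15 macrophage genes, all 15 had a positive log2 fold change at 7 weeks (median 1.22) and 2, C1qb and Cd14, were DEGs. At 3 weeks, 6 of the 15 genes had a positive value and 9 a negative one (median -0.15). Their summed level was 227 to 350 CPM in controls, 118 to 460 CPM in IDPN3w rats and 537 to 754 CPM in IDPN7w rats, and Cd163 had no count in IDPN3w 1. The T-cell genes Cd3d and Cd3e stayed under 0.5 CPM in every library. The B-cell gene Ms4a1, the neutrophil gene Elane and the mast-cell gene Cpa3 were at 0 in all 9. Other genes of the T-cell, neutrophil and mast-cell lists were detected, so these 5 do not stand for their lists. The 6 T-cell markers summed to 10.0 to 11.2 CPM in controls, 6.62 to 9.32 CPM in IDPN3w rats and 15.4 to 27.5 CPM in IDPN7w rats. Only 3 of these 6 were tested, and 4 were at 0 in at least 1 library. The 8 hair cell markers summed to 1820 to 1949 CPM in controls, 1019 to 1312 CPM in IDPN3w rats (2 downregulated) and 975 to 1146 CPM in IDPN7w rats (5 downregulated). The 6 supporting cell markers summed to 11457 to 11834, 6525 to 8542 and 4269 to 6532 CPM in the same order, with 2 downregulated at 7 weeks. The 6 neuron markers summed to 101 to 115, 65.1 to 70.2 and 61.1 to 76.3 CPM, with 1 called lower at each time. Single neuron markers were divided: 3 rose and 3 fell at 3 weeks (median log2 fold change 0.47), and 2 rose and 4 fell at 7 weeks (median -0.13). Hair cell, supporting cell and neuron sums were thus below those of the controls in all 6 exposed rats, at 3 weeks as at 7 weeks. Beside the counts of called markers, 2.00% of all tested genes were upregulated at 7 weeks. Downregulated were 1.21% of all tested genes at 3 weeks and 3.13% at 7 weeks.

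The 6 Schwann cell markers summed to 9516 to 11970 CPM in controls, 7676 to 10175 CPM in IDPN3w rats and 3246 to 6816 CPM in IDPN7w rats, where 2 were downregulated. Endothelial markers summed to 262 to 267, 251 to 308 and 242 to 343 CPM, and fibroblast markers to 647 to 706, 613 to 842 and 585 to 728 CPM. Mast-cell markers summed to 151 to 177, 132 to 180.5 and 99.5 to 129 CPM. Of these 6 genes only 1 could be tested and 5 were at 0 in at least 1 library, so the sum does not describe the list. Neutrophil markers summed to 0.478 to 1.82, 1.55 to 7.82 and 3.50 to 4.41 CPM, and B-cell markers to at most 0.675 CPM in any library. Of the 6 neutrophil genes 3 were tested, and at 7 weeks 2 rose and 1 fell (median log2 fold change 2.03), with none called. Among them, Csf3r measured 0.108, 1.47 and 0 CPM in controls, 0, 0.606 and 0.523 CPM in IDPN3w rats and 2.26, 2.18 and 2.94 CPM in IDPN7w rats. The part of these shifts in the values of the cytokine genes was not tested.

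Il17rb, the receptor for interleukin-17B and for interleukin-25 (IL-17E), showed a large change at each step. It measured 12.7, 10.6 and 13.7 CPM in controls, 30.7, 24.8 and 29.7 CPM in IDPN3w rats, and 288, 182 and 144 CPM in IDPN7w rats. The 3 groups were fully apart, and the lowest IDPN7w rat was above the highest IDPN3w rat. By edgeR, the log2 estimate was 1.20 ± 0.23 for IDPN3w (2.30-fold, adjusted p = 0.032), 4.05 ± 0.26 for IDPN7w (16.6-fold, adjusted p = 2.93e-05) and 2.85 ± 0.24 between IDPN7w and IDPN3w (7.20-fold, adjusted p = 0.000696). The 3-week call was lost in 7 of the 9 fits that left out a library, those without any of the Control or IDPN3w rats or without IDPN7w 2 (adjusted p up to 0.132). It was also lost with the library set as a covariate (0.0630) and within the 6 libraries with more detected genes (0.188), where the call between IDPN7w and IDPN3w was lost as well (0.0820). The 7-week call was kept under every alternative.

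The gene overlaps Chdh and Actr8 in RefSeq. Chdh, which encodes the mitochondrial choline dehydrogenase, measured 47.3, 38.7 and 45.0 CPM in controls, 47.7, 45.5 and 55.3 CPM at 3 weeks and 167, 128 and 100.0 CPM at 7 weeks. Like Il17rb, it was highest in IDPN7w rat 1, and the edgeR estimate on the log2 scale was 1.59 for IDPN7w (adjusted p = 0.000878) and 0.18 for IDPN3w (adjusted p = 0.684). Actr8 overlapped between groups, and IDPN7w differed from control by 0.04 on the log2 scale (adjusted p = 0.933). Since the strand used in counting was not stated, reads from the shared stretches cannot be assigned with certainty, and the size of this share was not tested.

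The ligands of IL-17RB were scarce. Il17b measured 0.701, 3.60 and 5.32 CPM in controls, 3.24, 2.69 and 5.29 CPM at 3 weeks and 0.998, 0.452 and 0.405 CPM at 7 weeks. IDPN7w rats were below all IDPN3w rats, while Control 1 lay within the IDPN7w range, and neither difference passed with edgeR (log2 -2.59 ± 0.76, adjusted p = 0.191, and -2.36 ± 0.76, adjusted p = 0.108). Without Control 1 the difference from control passed. Il25 ranged from 0 to 2.76 CPM, with no call. Il17d, another interleukin-17 gene that is not counted among these ligands, ranged from 1.75 to 4.71 CPM, also with no call.

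The other receptors of the family moved less. Il17re, which pairs with IL-17RA to bind interleukin-17C in epithelial cells, measured 75.4, 66.8 and 51.6 CPM in controls, 80.8, 106 and 89.2 CPM at 3 weeks, and 101, 113 and 94.1 CPM at 7 weeks. All exposed rats were above the controls, and the 7-week change passed (log2 0.67 ± 0.16, edgeR adjusted p = 0.0347). This call was lost without Control 2, Control 3 or any of the IDPN7w rats, with adjusted p up to 0.130, and with the library set as a covariate (0.0646). Within the 6 libraries with more detected genes it was lost by size, at 0.52 on the log2 scale (adjusted p = 0.0192). Il17ra, the shared chain of the family, measured 25.5 to 37.3 CPM in controls and 42.5 to 58.7 CPM at 7 weeks without overlap (log2 0.64 ± 0.21, edgeR adjusted p = 0.109). This change passed with DESeq2. Il17rc and Il17rd overlapped with the controls at 7 weeks, with log2 fold changes of 0.21 ± 0.17 and 0.29 ± 0.23. Among the ligands, Il17c had 1 count in all 9 libraries, and Il17a and Il17f had none.

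**Figure D4:**
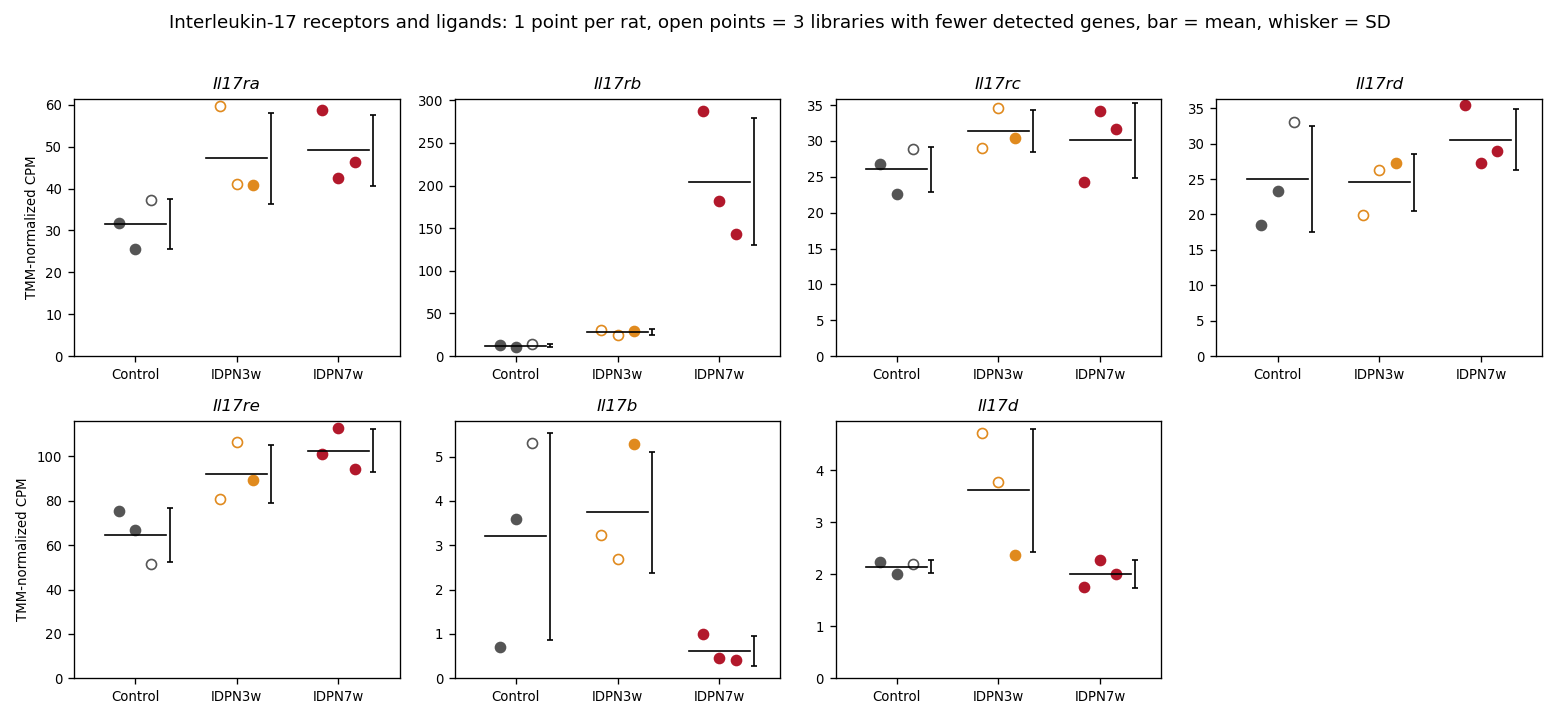
TMM-normalized CPM of the 5 interleukin-17 receptors and of the ligands Il17b and Il17d, with 1 point per rat, open points for the 3 libraries with fewer detected genes, a bar at the mean of 3 rats and a whisker for the SD. Axes are linear, start at 0 and differ in scale. Il17rb reached 144 to 288 CPM in IDPN7w rats, while Il17rc and Il17rd overlapped between IDPN7w and control.

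Sequences before the transcription start are shown for 3 of the 4 genes that were DEGs at both times, and for Tnfrsf12a. They are taken from RefSeq (GRCr8) and read 5' to 3' on the strand of the gene over 250 bases. All 112 genes matched a RefSeq symbol and 84 had a promoter entry. The windows are chr4:152060531-152060780, plus strand, for Cxcl12, chr1:90124536-90124785, minus strand, for Cxcl17, chr16:5200658-5200907, minus strand, for Il17rb, and chr10:13213649-13213898, minus strand, for Tnfrsf12a. Capitals mark matches to the motifs described after the sequences.
Cxcl12: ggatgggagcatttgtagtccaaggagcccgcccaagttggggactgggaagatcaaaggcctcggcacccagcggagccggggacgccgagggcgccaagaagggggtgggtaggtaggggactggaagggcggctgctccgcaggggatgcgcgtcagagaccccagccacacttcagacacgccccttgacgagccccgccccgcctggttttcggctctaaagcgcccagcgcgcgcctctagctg
Cxcl17: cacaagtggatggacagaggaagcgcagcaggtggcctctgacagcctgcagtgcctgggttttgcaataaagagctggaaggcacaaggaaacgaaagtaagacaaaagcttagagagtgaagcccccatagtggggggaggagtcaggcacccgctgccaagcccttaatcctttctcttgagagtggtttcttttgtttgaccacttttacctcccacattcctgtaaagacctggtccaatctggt
Il17rb: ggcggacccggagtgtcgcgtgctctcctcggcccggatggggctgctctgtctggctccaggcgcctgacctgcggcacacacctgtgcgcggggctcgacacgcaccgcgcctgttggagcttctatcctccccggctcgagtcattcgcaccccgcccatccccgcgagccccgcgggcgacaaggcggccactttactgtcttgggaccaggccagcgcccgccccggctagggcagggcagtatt
Tnfrsf12a: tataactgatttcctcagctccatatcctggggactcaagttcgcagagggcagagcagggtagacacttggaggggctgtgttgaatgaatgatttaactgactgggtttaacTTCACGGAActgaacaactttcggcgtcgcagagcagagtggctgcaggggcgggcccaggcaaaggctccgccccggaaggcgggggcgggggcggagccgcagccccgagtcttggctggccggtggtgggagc

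Each window was searched on both strands for the core of the interferon-stimulated response element (GAAA, any pair of bases, then GAAA), for TTCNNNGAA, the core of the gamma-activated site, and for the NF-kB consensus site. The interferon core was found in 8 of 84 promoters of cytokine and receptor genes (9.52%), among them those of Cxcl10, Ccl19, Il6st and Tnfrsf1b, against 3.35% of 27456 promoters. The gamma-activated core was found in 5 (5.95%, against 7.57%), and the NF-kB site in 12 (14.3%, against 6.33%), including Cxcl1, Cxcl6, Cxcl10 and Cxcl11. Of the 11 DEGs with an entry, 1 held any match, Tnfrsf12a, with the gamma-activated core at 136 to 128 bases before the start. These are matches of letters in short windows and not known binding sites.

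Interleukin-1 family receptors changed in different directions. Il1r2, a decoy receptor that binds interleukin-1 without signalling, measured 34.6, 31.8 and 32.4 CPM in controls, 55.7, 72.5 and 85.1 CPM at 3 weeks, and 58.4, 45.0 and 46.5 CPM at 7 weeks. All exposed rats were above the controls, and the change passed at 3 weeks (log2 1.11 ± 0.17, edgeR adjusted p = 0.0125) but not at 7 weeks (0.60 ± 0.17, adjusted p = 0.0706). The 7-week change passed with DESeq2, without IDPN3w 1, and when only IDPN7w and control libraries were fitted. The 3-week call was lost without Control 1 (adjusted p = 0.0595) or Control 2 (0.0643). The difference between the 2 times, tested itself, did not pass (log2 -0.51 ± 0.17, adjusted p = 0.225).

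Il1rapl1, a synaptic member of the interleukin-1 receptor family, had 106 counts in the 3 controls (0.782, 0.846 and 1.41 CPM) and none in any of the 6 exposed rats. Against a floor of 3 counts per library, the level was at least 11.0-fold lower at 3 weeks and at least 15.3-fold lower at 7 weeks, with edgeR adjusted p of 0.0863 and 0.0404. The gene passed the filter on low counts through the controls alone, the group in which it was high, and its p values carry that limit. The 7-week call was lost whenever a control or an IDPN7w rat was left out (adjusted p up to 0.130) and with the library set as a covariate (0.0603). Il1rap, the accessory chain that interleukin-1 receptors need to signal, measured 105, 85.3 and 81.4 CPM in controls, 83.7, 78.4 and 85.1 CPM at 3 weeks and 123, 114 and 110.2 CPM at 7 weeks. IDPN7w rats were above all others, without passing (log2 0.35 ± 0.11 against control, adjusted p = 0.110).

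The signalling receptor Il1r1 measured 7.80 to 15.8 CPM and overlapped in all groups. Its ligand Il1b had 42 counts in controls, 1 in IDPN3w rats and 60 in IDPN7w rats, and Il1a had 2 in all 9 libraries. Il33, an alarmin of epithelial and stromal cells, measured 3.34 to 4.78 CPM in controls, 1.04 to 5.38 CPM at 3 weeks and 6.44 to 8.80 CPM at 7 weeks, where all rats were above the controls (log2 0.98 ± 0.52, edgeR adjusted p = 0.354). Its receptor Il1rl1 had 8 counts in controls, none in IDPN3w and 87 in IDPN7w, at least 7.01-fold more than in IDPN3w (edgeR adjusted p = 0.160). This difference passed with DESeq2, and Il1rl1 passed the filter on low counts through the IDPN7w rats alone.

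Il18bp, which encodes the secreted antagonist of interleukin-18, measured 17.4, 22.1 and 21.0 CPM in controls, 2.40, 8.38 and 7.16 CPM at 3 weeks and 6.88, 8.22 and 7.14 CPM at 7 weeks. All exposed rats were below the controls, at log2 fold changes of -1.76 ± 0.39 and -1.44 ± 0.39, both just outside the threshold with edgeR (adjusted p = 0.0577 and 0.0576). Both changes passed with DESeq2, without the filter on low counts, with at least 10 counts required in every library, without IDPN3w 1, and within the 6 libraries with more detected genes. The 7-week change also passed without IDPN3w 2 and when only IDPN7w and control libraries were fitted. Il18 itself did not exceed 0.709 CPM.

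Il16 was the only interleukin ligand among the DEGs of the edgeR fit, and encodes the precursor of a CD4-binding chemoattractant, of which a longer form is found in neurons. It measured 85.4, 91.7 and 65.7 CPM in controls, 45.0, 59.4 and 64.7 CPM at 3 weeks and 28.0, 50.4 and 43.8 CPM at 7 weeks. All exposed rats were below the controls, with log2 fold changes of -0.52 ± 0.23 (edgeR adjusted p = 0.301) and -0.99 ± 0.23 (adjusted p = 0.0312). The 7-week call was lost without Control 1, Control 2, IDPN7w 1 or IDPN7w 3, with adjusted p up to 0.113. Il16 contains the pseudogene Snrpc-ps10 in RefSeq.

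Receptors of the interleukin-6 type signal through the gp130 chain, encoded by Il6st. Il6st measured 185, 150.5 and 155 CPM in controls, 182, 212 and 181 CPM at 3 weeks and 275, 221 and 229 CPM at 7 weeks. IDPN7w rats were above all others, and the 7-week change passed in p but not in size (log2 0.56 ± 0.12, edgeR adjusted p = 0.0222). Il6 had no count, and Il11ra1, which measured 119 to 136 CPM in controls, 139 to 183 CPM at 3 weeks and 110.4 to 139.7 CPM at 7 weeks, overlaps Ccl27 in RefSeq. Il2rb, a chain of the interleukin-2 and interleukin-15 receptors, had no count in controls, 9 in 1 IDPN3w rat and 130 over the IDPN7w rats, at least 10.7-fold above control (edgeR adjusted p = 0.0843). It passed the filter on low counts only because of the IDPN7w rats. The difference from control passed with DESeq2, without IDPN3w 3 and when only IDPN7w and control libraries were fitted.

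TNF receptors held 5 of the 13 DEGs at 7 weeks, from 11 tested (45.5%, against 5.13% of all tested genes). At 3 weeks they held 1 DEG (9.09%, against 1.65%). Tnfrsf11b encodes osteoprotegerin, a secreted decoy receptor for the ligands RANKL (Tnfsf11) and TRAIL (Tnfsf10). It measured 190.5, 144 and 166 CPM in controls, 269.8, 319 and 297 CPM at 3 weeks and 440.5, 305 and 429 CPM at 7 weeks. All 6 exposed rats were above the controls, IDPN7w 2 lay within the IDPN3w range, and edgeR gave log2 estimates of 0.83 ± 0.15 (adjusted p = 0.0263) for IDPN3w and 1.23 ± 0.15 (adjusted p = 0.0014) for IDPN7w. The 3-week call was lost without Control 1 (adjusted p = 0.0605), Control 2 (0.108), Control 3 (0.0830) or IDPN3w 2 (0.0813), with the library set as a covariate (0.0538) and within the 6 libraries with more detected genes (0.161), and the 7-week call was kept under every alternative. Tnfsf11 had no count, and Tnfsf10 measured 10.9 to 17.5 CPM in controls and 14.1 to 22.6 CPM at 7 weeks, with overlap.

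Tnfrsf19 (TROY), an orphan receptor of epithelial progenitors and neural tissue, measured 136, 142 and 125 CPM in controls, 169, 178 and 192 CPM at 3 weeks and 239.9, 219 and 231 CPM at 7 weeks. The 3 groups were apart with little spread within each. The log2 fold change at 3 weeks, 0.42 ± 0.09, passed in p but not in size (edgeR adjusted p = 0.0468), and at 7 weeks it was 0.78 ± 0.09 (adjusted p = 0.000878). Tnfrsf19 overlaps the non-coding RNA gene LOC134481977 in RefSeq.

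Tnfrsf1a, the main receptor of soluble TNF, measured 49.5, 50.0 and 61.8 CPM in controls, 64.8, 58.4 and 61.6 CPM at 3 weeks and 108, 87.2 and 94.6 CPM at 7 weeks. The 3-week rats overlapped the controls and the 7-week rats were above both groups. In log2 units, edgeR gave 0.20 ± 0.13 (adjusted p = 0.498) for IDPN3w, 0.84 ± 0.13 (adjusted p = 0.00404) for IDPN7w and 0.65 ± 0.13 (adjusted p = 0.0653) between the 2. Tnfrsf1b, the second TNF receptor, was at 0 in Control 3, IDPN3w 1 and IDPN3w 2, the same 3 libraries that detected fewer genes, and measured 2.51 to 7.01 CPM in the other 6.

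Tnfrsf12a (Fn14), the receptor of TWEAK, is known to be induced by injury. It measured 27.3, 23.6 and 33.5 CPM in controls, 31.8, 41.0 and 45.4 CPM at 3 weeks and 182, 51.8 and 64.6 CPM at 7 weeks. IDPN7w rats were all above the others, with rat 1 far above rats 2 and 3, and the change was 1.82 ± 0.41 on the log2 scale (adjusted p from edgeR 0.0288). Without IDPN7w 1 it was 1.05 and still passed (adjusted p = 0.0340), whereas leaving out any 1 of the controls lost the call (adjusted p up to 0.113), as did the library set as a covariate (0.0603) and restriction to the 6 libraries with more detected genes (0.192). TWEAK (Tnfsf12) measured 13.6 to 15.4 CPM in controls, 19.1 to 23.8 CPM at 3 weeks and 16.1 to 16.9 CPM at 7 weeks, with no call.

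Tnfrsf21, the death receptor DR6, was the only TNF receptor called lower with edgeR. It measured 301, 246 and 373 CPM in controls, 253, 202 and 276 CPM at 3 weeks and 171, 204 and 183 CPM at 7 weeks. The 7-week rats were below all controls (log2 -0.72 ± 0.16, edgeR adjusted p = 0.0275), and the call was lost without Control 1, Control 3 or any of the IDPN7w rats (adjusted p up to 0.120) and with the library set as a covariate (0.0623). Within the 6 libraries with more detected genes it was lost by size, at -0.56 on the log2 scale (adjusted p = 0.0178). DR6 is known for a role in myelin-forming cells and axons. The Schwann cell markers given above were lower in the same rats, and their part in this result was not tested.

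Of the TNF ligands, Tnfsf18 (GITRL) had 5 counts, all in Control 2, none in IDPN3w rats and 352 in IDPN7w rats, at 2.44, 2.71 and 2.53 CPM. The 3 IDPN7w rats were close to each other and far above the rest. The ratio to control was 53.6 (95% exact interval 22.8 to 166), and the level was at least 28.0-fold above IDPN3w, with edgeR adjusted p of 0.0716 and 0.0978. Tnfsf18 passed the filter on low counts through the IDPN7w rats alone. With DESeq2 both differences passed. The difference from control also passed when only IDPN7w and control libraries were fitted, and without Control 2, IDPN3w 1 or IDPN3w 2. The receptor of GITRL, Tnfrsf18, stayed at or below 0.189 CPM. Tnfsf13 (APRIL) measured 123 to 174 CPM in controls, 170.2 to 181 CPM at 3 weeks and 162 to 183 CPM at 7 weeks, and both Tnfsf12 and Tnfsf13 overlap Eif4a1l in RefSeq.

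**Figure D5:**
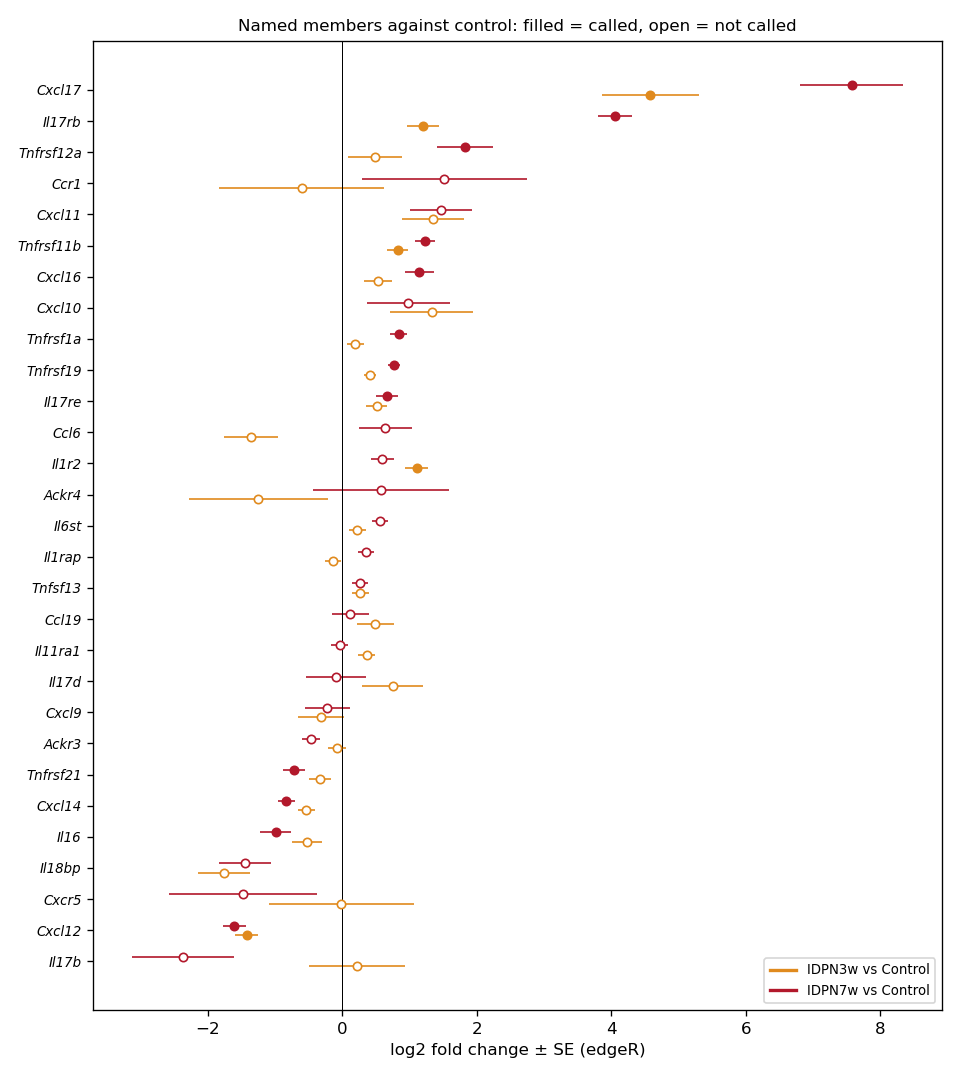
Log2 fold change with SE (edgeR, 3 rats per group) of named genes that had counts in at least 2 rats of every group, for IDPN3w (orange) and IDPN7w (red) against the shared controls. Filled points are DEGs. The largest called values are those of Cxcl17, at 7.57 at 7 weeks and 4.58 at 3 weeks, followed by Il17rb at 7 weeks, at 4.05.

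Genes of the same pathways that the symbol rule does not take were examined by fixed lists. Of 42 related cytokine genes, 29 were tested, and 1 was upregulated at 3 weeks and 2 at 7 weeks, with medians of 0.10 and 0.71 on the log2 scale. Of all tested genes, 0.438% and 2.00% were upregulated at these times. Csf1, the macrophage growth factor, measured 9.01, 11.6 and 8.27 CPM in controls, 24.0, 17.7 and 24.6 CPM at 3 weeks and 26.7, 23.9 and 25.6 CPM at 7 weeks, and was upregulated at both times (log2 1.20 and 1.40, edgeR adjusted p = 0.0174 and 0.0032). All exposed rats were above the controls. Osmr, the oncostatin M receptor that pairs with gp130, measured 4.13, 2.79 and 1.60 CPM in controls and 19.0, 13.3 and 10.3 CPM at 7 weeks (log2 2.32, adjusted p = 0.0208).

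Of 35 tested genes between the receptors and NF-kB, 1 was called, Myd88, the adaptor of interleukin-1 receptors, at 20.4 ± 2.70 CPM in controls and 36.3 ± 4.47 CPM at 7 weeks (SD, n = 3; edgeR adjusted p = 0.0151). As a share, 1 of 35 was not above the 5.13% of all tested genes that were DEGs at 7 weeks. The median over these 35 genes, on the log2 scale, was 0.15 for IDPN3w and 0.20 for IDPN7w. Of 22 tested JAK-STAT genes, 4 were upregulated at 7 weeks (2.00% of all tested genes were), among them Stat2, Stat3 and the feedback inhibitor Socs3. Stat2, a transducer of interferon signals, measured 63.4, 60.1 and 55.1 CPM in controls, 49.0, 53.7 and 58.6 CPM at 3 weeks and 173, 135 and 125 CPM at 7 weeks, with the 7-week rats above all others (log2 1.28, edgeR adjusted p = 0.000622). It was also higher in IDPN7w than in IDPN3w (log2 1.43, adjusted p = 0.00179).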

How the data were processed

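Each of 9 male rats, 3 per group, gave 1 RNA-seq library of its cristae and utricles, sequenced on an Illumina HiSeq in paired-end mode. The authors mapped the reads to Rnor6.0 with STAR 2.5.3a and quantified genes of the Rnor6.0.92 annotation with RSEM 1.3.0, versions as in the submitters' processing notes. The deposited values are expected counts per gene, which the authors made with RSEM, in whole numbers and without normalization. RSEM divides reads that fit several genes, and the strand setting is not given in the sources used here, so genes that overlap are uncertain. PCR copies carry no molecular identifiers.

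The counts were analysed in R 4.3.3 with edgeR 4.0.16: filterByExpr (15517 genes kept), TMM, and the robust quasi-likelihood F test in 1 fit of the 9 libraries with 1 mean per group, with Benjamini-Hochberg adjustment over all tested genes. DEGs passed a fold change of 1.5 with an adjusted p below 0.05. Standard errors come from the same fit. Members, gene lists and tests were chosen with earlier results of these data known. Named members were all DEGs, in each comparison the 6 with the smallest unadjusted p and the 3 with the largest and smallest fold change among those with a mean of at least 1 CPM, and the 5 with the highest total count in each of 4 classes; their ligands, receptors and other scarce members were added after their values were seen. Marker lists covered macrophages, T cells, B cells, neutrophils, mast cells, endothelium, Schwann cells, fibroblasts, hair cells, supporting cells and neurons.

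Alternatives were DESeq2 1.42.0, RLE size factors, no filter, a minimum of 10 counts in each library, fits of only the 2 groups compared, other fold thresholds, a covariate for the 3 libraries that detected fewer genes, each library left out in turn and, chosen after seeing the data, only the 6 libraries with more detected genes. When a group was left with 1 library, that rat was assumed to vary like the others. The pipeline was tested on simulated data. Replicates differed beyond sampling noise (chi-square per gene at least 16.8). Promoters came from RefSeq (GRCr8), and gene overlaps in RefSeq were used by name only. The authors' other experiments were not analysed here. Some named genes are not reported here.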

Additional observations from a re-analysis of the deposited data

Results flagged for a closer look

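The change of Il17rb differed between the 2 times of exposure by a test of the difference itself: IDPN7w against IDPN3w gave a log2 fold change of 2.85 ± 0.24 (edgeR quasi-likelihood test, adjusted p = 0.000696), with all 3 IDPN7w rats above all 3 IDPN3w rats. The range over the alternatives was 2.52 to 3.05, with an adjusted p of up to 0.0820. The overlapping gene Chdh differed in the same direction, by 1.41 (adjusted p = 0.00888).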

How the results depend on the processing

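Of the genes called against control, Cxcl12 (at both times), Cxcl14, Cxcl16, Cxcl17, Il17rb, Tnfrsf11b, Tnfrsf19 and Tnfrsf1a (at 7 weeks) kept direction and call at a fold change above 1.5 under every other fit that tested them, that is 1 of 5 calls at 3 weeks and 8 of 13 at 7 weeks. With a fold change above 2 also required, Cxcl14, Tnfrsf19 and Tnfrsf1a dropped out, which left 5 of 13 at 7 weeks. With DESeq2 in place of edgeR, 5 of the 93 genes were lower at 3 weeks and 14 were higher at 7 weeks. In IDPN7w against IDPN3w, 8 were higher and 1 lower. Of all 15517 tested genes, DESeq2 called 517 lower at 3 weeks and 514 higher at 7 weeks. It called 249 of all higher and 275 lower in IDPN7w than in IDPN3w. With no filter on low counts 2 of 112 genes were lower at 3 weeks, and 205 of all 19717. With at least 10 counts in every library, 48 of these genes were tested and 12913 of all genes. There, 2 were lower at 3 weeks (237 of all) and 3 higher in IDPN7w than in IDPN3w (79 of all). Fitting only the 2 groups compared gave 14 of 88 higher at 7 weeks, and 475 of all 15243. In IDPN7w against IDPN3w it gave 2 of 85 higher, and 39 of all 15118. A fold change above 2 left 5 higher and 2 lower at 7 weeks (196 and 284 of all 15517). With the library set as a covariate, 2 were higher at 3 weeks (56 of all 15517) and 3 lower at 7 weeks (447 of all). With only the 6 libraries that detected more genes, 2 were higher and 2 lower at 3 weeks, 17 higher at 7 weeks (of 101 tested, where 9.56% of all genes were called), and 2 higher in IDPN7w than in IDPN3w, which were Ccr1 and Cxcl17. Leaving out each library in turn gave 0 to 4 higher and 1 to 3 lower at 3 weeks, 6 to 11 higher and 2 to 6 lower at 7 weeks, and 1 to 5 higher in IDPN7w than in IDPN3w. In these fits, 0.475% to 2.77% of all tested genes were called at 3 weeks and 2.73% to 6.12% at 7 weeks. Between IDPN7w and IDPN3w it was 0.247% to 2.81%, the highest without IDPN3w 3. No gene was higher at 3 weeks without Control 1 or Control 2, and 5 were higher in IDPN7w than in IDPN3w without IDPN3w 3. The fold change of Cxcr5 reversed: at 7 weeks it was -1.47 in the edgeR fit of all libraries, 0.0498 with the covariate, 0.28 in the 6 libraries, and from -2.04 to 0.29 with each library left out, the highest without Control 3, and between IDPN7w and IDPN3w it was 0.34 with the covariate. The cause of these changes was not tested. No paired analysis was possible because the replicate numbers were given in accession order and pair no animals, and because the code in the library titles is shared by no control and exposed rat and by only 1 pair of IDPN3w and IDPN7w rats. In that pair Il17rb measured 30.7 CPM in IDPN3w 1 and 288 CPM in IDPN7w 1. The floor of 3 counts and the 0 counts in the 3 libraries with fewer detected genes limit what can be said of scarce receptors and ligands.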
